A study of Mus musculus with 1666 samples.

Results

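The basement membrane is the thin matrix sheet on which epithelial cells rest, and 31 genes of that sheet and of the structures that anchor cells to it were followed here through the first days of whisker follicle formation in the mouse. The genes were taken as a fixed list (type IV collagens, laminins, nidogens, heparan sulphate proteoglycans, anchoring fibril and hemidesmosome genes, Fraser complex genes and integrin ligands of the sheet), and all 31 were among the 49662 symbols of the table. A whisker follicle begins as a thickening of the surface epithelium, the placode, which grows down into the mesenchyme, so epithelium and fibroblasts face each other across this sheet at every step. Both sides can contribute: type IV collagen and laminin polymerise into separate networks, nidogens and perlecan bridge them, and laminin binds integrins on the epithelial cell. Mutations in several of these genes cause blistering, because the epidermis comes off the dermis.

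Cells came from a transgenic mouse line with nuclear Kikume Green-Red, a fluorescent protein that turns from green to red when illuminated. From E12.0 onward, at 6 of the 7 stages, single follicles were photo-converted and red cells that carried ITGA6 and lacked CD31 on the surface were sorted, whereas the cells of E11.5 passed the same surface gate without photo-conversion. E11.5 was also 1 plate, so stage, plate and way of sampling cannot be told apart in its values. The strain, the sex, the number of embryos and any treatment are not stated in the labels, and all stages share the reporter. Libraries were made by RamDA-seq, which reads whole transcripts of single cells with or without a poly(A) tail. Levels are given as TPM, the abundance of a transcript corrected for its length and scaled to the total of the cell. Because ITGA6 is itself a laminin receptor subunit, every cell had passed a gate on 1 partner of these genes.

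Of 1614 cells on 18 plates, 1035 were epithelial by Krt5 and Trp63 of at least 10 TPM with Col3a1 under 50 TPM, and 417 were fibroblast-like by Col3a1 of at least 50 TPM and Pdgfra of at least 10 TPM with Trp63 under 10 TPM. None of the 31 genes enters either rule. From E11.5 to E17.0 the epithelial cells numbered 54, 267, 53, 159, 144, 178 and 180, and the fibroblast-like cells 14, 0, 210, 2, 19, 126 and 46. Krt5 and Trp63 of the basal epidermis markers and Col3a1 and Pdgfra of the fibroblast markers were used to choose the cells, so only the other 6 of each list bear on the names. All 6 such basal epidermis markers stood at 10 TPM or more in the epithelial cells of each stage and 0 of 6 in the fibroblast-like cells. Of the 6 such fibroblast markers 4 to 6 stood at 10 TPM or more in the fibroblast-like cells of a stage and 0 to 3 in the epithelial cells, with Col1a2 highest there from E13.0 on. The summed level of the 8 fibroblast markers in epithelial cells was 16.4 TPM at the first stage and 177 TPM at the last, where Col1a2 led, and its part in the results below was not tested. By stage, cells had a median of 16601 to 19468.5 genes at 1 TPM or more, with the most at E12.0. The first E15.0 plate stood apart, with 11.1% epithelial and 81.1% fibroblast-like cells against 61.6 to 67.4% and 17.1 to 23.3% on the other E15.0 plates, and with Xist at 1 TPM or more in 2.22% of cells against 54.7 to 58.1%. Its identifier in the titles is also that of the first E13.0 plate, where 73.3% of cells were fibroblast-like and Xist was at 1 TPM or more in 53.5%. Of their cells 81 share a well name and 0 share their values. The other 3 E15.0 plates likewise share identifiers with the 3 E17.0 plates. The cells were kept at the stage the labels give. Where a result rests on the first E15.0 plate, plate means or the outcome without that plate are also given. The labels name no embryo, so each stage counts as 1 sample and is the unit in all tests below, whereas plates and cells are not replicates. In the text, a stage mean is the equally weighted mean of plate means.

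The type IV collagens form the net of the sheet, and their 6 genes lie in the genome as 3 pairs that are read away from each other. The start regions of the pairs are shown as a description, and a link between them and the levels from cell to cell was not tested. Sequences were read from the mouse build GRCm38.p6, and capitals mark matches to GGGCGG (GC box), CCAAT or TATAAA on either strand. The first exons of Col4a1 and Col4a2 share 22 bases, the starts of Col4a4 and Col4a3 are 71 bases apart, and the starts of Col4a6 and Col4a5 are 1308 bases apart, of which the stretches next to each start are given (Col4a6 on its own, minus strand).
Col4a1-Col4a2 shared start, chr8:11312805-11312826, plus strand: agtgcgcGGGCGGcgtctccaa
Col4a4-Col4a3 gap, chr1:82586850-82586920, plus strand: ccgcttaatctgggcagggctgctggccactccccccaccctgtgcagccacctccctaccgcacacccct
Col4a6 upstream, chrX:141474077-141474326, minus strand: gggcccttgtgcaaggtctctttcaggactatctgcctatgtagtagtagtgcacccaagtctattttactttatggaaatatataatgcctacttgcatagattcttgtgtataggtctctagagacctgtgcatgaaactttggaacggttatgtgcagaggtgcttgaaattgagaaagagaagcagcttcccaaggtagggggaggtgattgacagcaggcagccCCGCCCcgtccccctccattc
Col4a5 upstream, chrX:141475169-141475384, plus strand: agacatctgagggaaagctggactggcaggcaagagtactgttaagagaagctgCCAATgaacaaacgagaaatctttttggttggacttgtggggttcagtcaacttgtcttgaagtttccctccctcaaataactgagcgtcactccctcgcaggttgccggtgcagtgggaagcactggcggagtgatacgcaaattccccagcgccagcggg

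One GGGCGG lies in the Col4a1-Col4a2 overlap and 1 in the Col4a6 stretch, 1 CCAAT lies in the Col4a5 stretch, and the Col4a4-Col4a3 gap holds none of the 3 motifs. Over 32851 RefSeq promoter windows of 250 bases, 32.7% held GGGCGG, 33.9% CCAAT and 12.4% TATAAA. Single matches to the first 2 are thus common in stretches of that length. The Col4a6 stretch is also 250 bases long. The others, of 22, 71 and 216 bases, are shorter, so these shares do not describe them.

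Col4a1 and Col4a2 encode the chains of the net found in nearly all basement membranes. In epithelial cells Col4a1 stood at 85.8, 99.3, 67.3, 58.96, 60.2, 55.2 and 58.7 TPM over the 7 stages in order. Col4a2 stood at 25.2, 26.1, 18.1, 19.6, 18.8, 19.4 and 21.3 TPM, below Col4a1 at every stage. In fibroblast-like cells Col4a1 was 74.3, 59.7, 106, 97.4 and 173.3 TPM at the 5 stages (E11.5, E13.0, E14.0, E15.0, E17.0) with at least 10 such cells. The fibroblast-like values were below the epithelial ones at E11.5 and E13.0 and above them at the 3 later stages. Neither gene passed the test between the classes (Col4a1: log2 difference -0.56, limma adjusted p = 0.187). From cell to cell within a stage the pair was the closest of the pairs among the 19 members at 10 TPM or more in epithelial cells, with a mean Spearman rho of 0.66 (0.42 to 0.86 over stages) against a median of 0.17 over those pairs, and of the 136 pairs among 17 such members in fibroblast-like cells, with 0.71 (0.17 to 0.83). Cells of a stage share plates and depth, and the deposited counting gives no strand, so reads in the 22 shared bases could belong to either gene.

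Col4a5 and Col4a6 encode the chains of a net that lies under epithelia such as the epidermis. Col4a5 stood at 16.6, 14.3, 13.8, 24.2, 21.2, 17.8 and 16.7 TPM in epithelial cells by stage. Col4a6 stood at 5.08, 3.96, 4.22, 11.99, 9.93, 8.81 and 8.25 TPM. Both were low up to E13.0 and highest at E13.5, with plate means of 11.7 to 12.2 TPM for Col4a6 at E13.5 against 3.43 to 4.82 TPM at E13.0. Their mean rho in epithelial cells was 0.51 (0.21 to 0.66). In fibroblast-like cells Col4a6 lay between 0.823 and 1.29 TPM and Col4a5 between 1.78 and 7.66 TPM at the 5 stages. Col4a3 and Col4a4, which with Col4a5 build the net of the kidney filter, were at most 1.75 TPM and 2.33 TPM in epithelial cells, both at E17.0, and both were at 1 TPM or more together in 3.38% of epithelial cells.

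**Figure D1:**
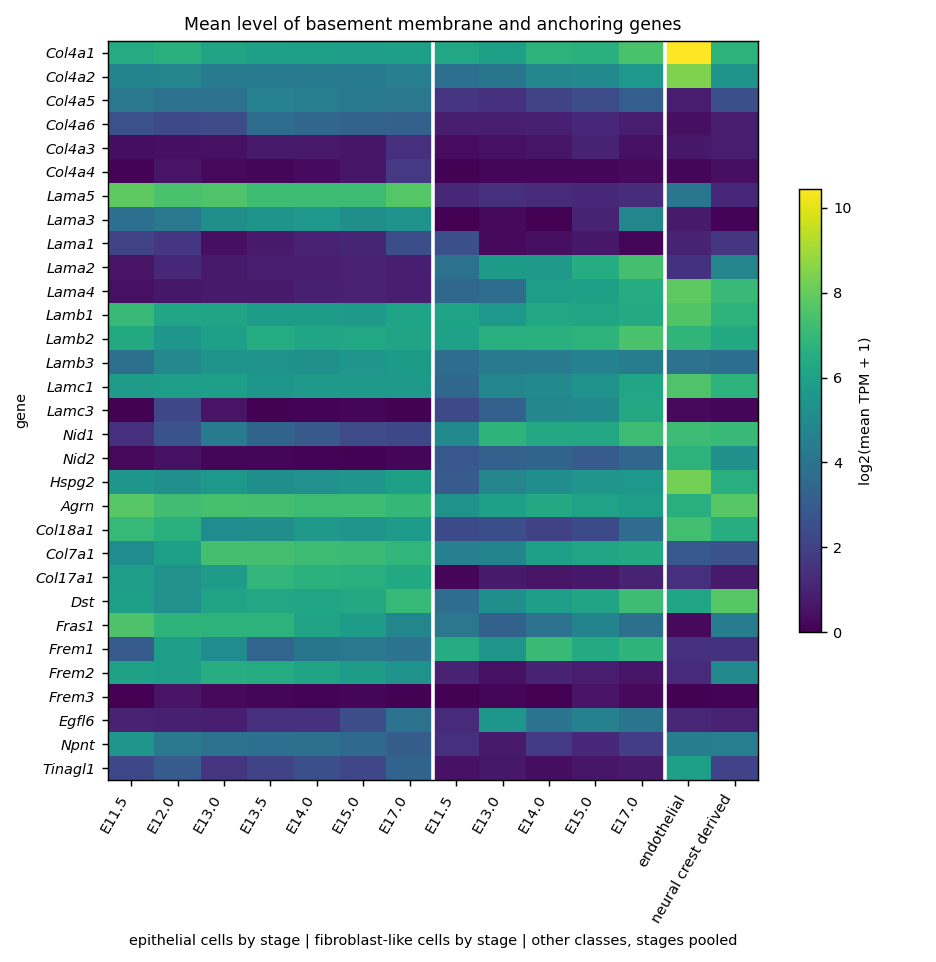
Mean level of the 31 genes (rows) as log2(mean TPM + 1) in epithelial cells of 7 stages, fibroblast-like cells of 5 stages, and endothelial and neural crest derived cells pooled over stages (columns). Lama5, Col17a1 and Frem2 are bright in the epithelial columns and dark in the fibroblast-like ones. Lama2, Lama4, Lamc3 and, at a much lower level, Nid2 are brighter in the fibroblast-like columns than in the epithelial ones. Col4a1 is highest in endothelial cells (1400 TPM).

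Laminins are trimers of an alpha, a beta and a gamma chain, and the alpha chain carries the main integrin binding sites. Lama5, the main alpha chain under embryonic epithelia, stood at 233, 172.8, 190, 146, 144, 142 and 208 TPM in epithelial cells by stage. In fibroblast-like cells it was 1.28, 1.73, 1.39, 1.24 and 1.48 TPM. The classes were far apart at every stage, and within the epithelium the linear slope with day did not pass the test (-0.03 log2 per day, limma adjusted p = 0.833). Lama3, the alpha chain of the hemidesmosome laminin, was 13.2, 17.3, 36.3, 41.9, 46.1, 35.5 and 39.4 TPM. Its lowest stages were E11.5 and E12.0, and the linear slope did not pass the test (0.25 per day, adjusted p = 0.226). The first E15.0 plate, with 10 epithelial cells, gave the lowest Lama3 plate mean of its stage, 19 TPM, against up to 41.9 TPM. Lamb3, the beta chain of the same trimer, was 13.3 TPM at the first stage and 51.6 TPM at the last (slope 0.26, adjusted p = 0.148).

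Lamb1, Lamb2 and Lamc1 are the beta and gamma chains shared by many laminins. In epithelial cells Lamb1 was 135 TPM at E11.5 and 49.8 to 72.6 TPM at later stages. Lamb2 lay between 45.6 and 88.6 TPM, and Lamc1 between 45.3 and 58.9 TPM. In fibroblast-like cells at the 5 stages Lamb1 lay between 46.1 and 82.1 TPM, and the classes did not pass the test of a difference (log2 difference 0.03, adjusted p = 0.955). Lama1, an alpha chain of the earliest embryonic membranes, did not exceed 4.90 TPM in either class.

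Fibroblast-like cells held another set of laminin chains. Lama2, best known from muscle, stood at 14.6, 50.95, 50.02, 87.4 and 163 TPM at the 5 stages in order. Lama4, the alpha chain of vessel walls and mesenchyme, stood at 10.4, 12.3, 56.5, 60.8 and 87.1 TPM. Lamc3, a gamma chain, stood at 3.90, 8.34, 27.3, 30.4 and 77.9 TPM. All 3 were highest at E17.0 and lowest at E11.5. On the first E15.0 plate they stood at 49.3, 52.4 and 15.7 TPM, below the other E15.0 plates for each chain. The share of fibroblast-like cells with Lamc3 at 10 TPM or more was 18.6% at E13.0 (exact 95% Clopper-Pearson interval 13.6 to 24.5%) and 91.3% at E17.0 (79.2 to 97.6%). These intervals cover the counting of cells only, and no trend was tested in this class. In epithelial cells Lama2 and Lama4 stayed at or under 1.34 TPM and 0.936 TPM at the 7 stages, and Lamc3 at or under 0.448 TPM except at E12.0, where it was 3.63 TPM (plates 3.14 to 4.29).

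Lama3 gave an exception among the fibroblast-like cells. It stood at 0.0176, 0.194, 0.0271 and 1.03 TPM up to E15.0 and at 26.8 TPM at E17.0, with 15.01 to 41.1 TPM on the 3 plates of that stage. At E17.0, 19 of 46 cells (41.3%, interval 27 to 56.8%) were at 10 TPM or more, against 2 of 371 at the other stages together. The 46 cells fell apart, with 22 under 1 TPM and 5 between. These cells were looked at further after their values were seen, as a description with no test. The 19 cells had a median of 0.657 TPM of Krt5 and 0 TPM of Krt14, so 2 defining genes of basal epidermis were near 0, as in the 22 cells without Lama3 (0.43 and 0 TPM). Their median Itga6 was 110 TPM against 8.76 TPM, and their median Egfl6 25.1 TPM against 1.54 TPM. Dcn, a dermal proteoglycan, had a median of 1.99 TPM against 24.4 TPM, and Col1a1 of 3791 TPM against 1535 TPM. Genes at 1 TPM or more numbered 17115 and 17393 by median.

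**Figure D2:**
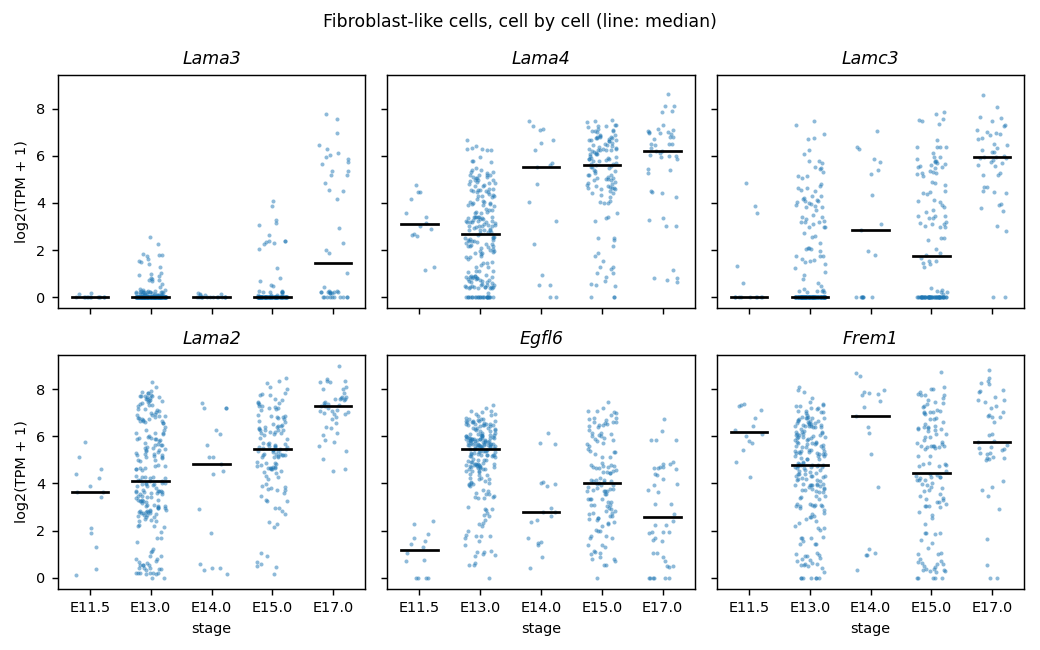
Level of 6 members in each fibroblast-like cell as log2(TPM + 1), by stage, with a line at the median. Lama3 lies near 0 up to E15.0 and splits at E17.0 into cells near 0 and cells at 10 TPM or more (19 of 46), Lama4 and Lamc3 are highest at E17.0, and Egfl6 is highest at E13.0.

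Nidogens, perlecan and agrin link the collagen and laminin nets. Nid1 stood at 1.63, 5.34, 18.3, 9.24, 6.61, 4.27 and 3.86 TPM in epithelial cells, with its highest value at E13.0 (plates 12.7 to 24.2). In fibroblast-like cells it was 31.2, 111, 77.6, 75.3 and 143 TPM, above the epithelium at all 5 stages. Nid2 was at most 0.39 TPM in epithelial cells and 6.16 to 9.95 TPM in fibroblast-like cells. Nid2 shares 437 exon bases with Rtraf, so part of its reads may not be its own. Perlecan (Hspg2) lay between 35.7 and 61.1 TPM in epithelial cells and between 6.95 and 46.3 TPM in fibroblast-like cells at the 5 stages. Agrn lay between 122 and 211 TPM in epithelial and between 40.5 and 78.6 TPM in fibroblast-like cells. Col18a1, the collagen from which endostatin is cut, stood at 128, 98.9, 33.2, 34.7, 49.3, 44.6 and 52.5 TPM in epithelial cells. Its E11.5 and E12.0 values were above all later ones.

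Anchoring genes tie the epithelial cell to the sheet and the sheet to the dermis. Col7a1, the collagen of anchoring fibrils, stood at 33.1, 59.1, 164, 166, 142, 139 and 117 TPM in epithelial cells. E11.5 and E12.0 were the low stages. Col17a1, a collagen that spans the cell membrane in hemidesmosomes, stood at 57.7, 38.1, 51.6, 117, 101, 95.7 and 81.6 TPM. Dst, whose epithelial form joins keratin filaments to hemidesmosomes, stood at 58.1, 37.98, 68.7, 75.4, 70.9, 77.6 and 129 TPM, with plate means of 123 to 138 TPM at E17.0. In fibroblast-like cells Col7a1 was 22.4, 25.5, 59.5, 72.1 and 79.4 TPM, and Dst 12.2, 35.8, 55.5, 67.5 and 148 TPM, whereas Col17a1 stayed at or under 1.05 TPM.

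The Fraser complex genes Fras1, Frem1 and Frem2 encode proteins that join in the sheet and hold embryonic skin to its mesenchyme. Fras1 stood at 186, 111, 107.9, 107, 68.5, 54.4 and 26.9 TPM in epithelial cells. Each stage from E14.0 on was below all earlier ones, with plate means of 25.9 to 28.7 TPM at E17.0. Frem2 stood at 61.7, 56.6, 89.3, 85.4, 66.9, 54.1 and 38.7 TPM. Frem1 stood at 7.05, 55.8, 33.1, 9.73, 15.8, 17.2 and 14.7 TPM, with 51.8 to 62.01 TPM on the 3 plates of E12.0, its highest stage. At E12.0, 96.6% of epithelial cells were at 10 TPM or more of Frem1, against 18.5% at E11.5. The E11.5 cells came from 1 plate without photo-conversion, so stage and sampling cannot be told apart in this contrast. Frem1 was higher on the fibroblast side, at 86.6, 44.9, 135, 82.2 and 111 TPM. Frem3 did not exceed 0.462 TPM in any stage of either class. From cell to cell in epithelial cells, Frem1 and Frem2 had a mean rho of 0.44 (-0.21 to 0.69), and Fras1 and Frem2 had the lowest mean of the pairs among the 19 members at 10 TPM or more, -0.21 (-0.49 to 0.23).

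Npnt, Egfl6 and Tinagl1 are smaller matrix proteins of the sheet, and the first 2 bind the integrin that contains Itga8. Npnt stood at 42.9, 17.2, 13.9, 12.97, 13.4, 10.7 and 7.404 TPM in epithelial cells, highest at E11.5 and lowest at E17.0. Egfl6 stood at 0.95, 0.878, 0.815, 1.65, 1.79, 4.55 and 13.99 TPM. It was near 1 TPM up to E13.0, and at E17.0 its plate means were 12.98 to 15.3 TPM and 45.6% of epithelial cells (38.1 to 53.1%) were at 10 TPM or more. Its E15.0 value was raised by the plate that stood apart, at 8.48 TPM from 10 epithelial cells, against 3.04 to 3.47 TPM on the other plates. In fibroblast-like cells Egfl6 was 1.47, 45.4, 14.6, 22.4 and 15.2 TPM, highest at E13.0 (plates 39.7 to 56.1). At E15.0 the plate that stood apart gave 47.7 TPM of Egfl6 in fibroblast-like cells and the other plates 10.6 to 20.5 TPM, and the E13.0 plate of the same identifier gave 40.4 TPM. Tinagl1 stood between 1.97 and 9.25 TPM in epithelial cells and at or under 0.706 TPM in fibroblast-like cells at the 5 stages.

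Change with embryonic day in epithelial cells was tested with limma on log2(stage mean TPM + 1), with p-values adjusted over 23671 genes of at least 1 TPM on average (two-sided, threshold 0.05). Of the 31 members 24 reached that level. Fras1 fell with day (slope -0.46 ± 0.05 SE log2 per day, adjusted p = 0.0119) and Egfl6 rose (0.57 ± 0.08, adjusted p = 0.0196). Over all genes 1.87% were called, 0.646% as falling and 1.23% as rising, against 1 member each way. Npnt (slope -0.34, adjusted p = 0.0805) and Dst (0.25, adjusted p = 0.0687) did not pass. The median slope of the 24 was 0.02 against -0.01 over all genes. Of the 14 receptor and anchoring partner genes all were tested, and 1 rose and 0 fell. That gene was Itga8, the receptor subunit for Npnt and Egfl6, with a slope of 0.86 ± 0.14 (limma adjusted p = 0.0321). Itga8 stood at 0.707, 1.53, 1.16, 5.36, 11.52, 28.9 and 28.9 TPM by stage. Its plate means at E15.0 ran from 17.7 to 56.1 TPM. Of the 25 assembly and other matrix genes 23 were tested and 0 passed, with 7 at an unadjusted p under 0.05, a level that 18.9% of all genes reached.

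Both calls among members lay near the threshold in some alternatives. With no filter on low values the adjusted p was 0.0506 for Fras1 and 0.0776 for Egfl6, at slopes of -0.46 and 0.565. Without E17.0 the slope of Fras1 was -0.44 (adjusted p = 0.0504) and that of Egfl6 0.41 (adjusted p = 0.102), and Egfl6 also missed the threshold without E12.0 or E15.0. Over all alternatives the adjusted p ranged from 0.00518 to 0.0506 for Fras1 and from 0.0171 to 0.102 for Egfl6. Both genes kept their calls without E11.5 and without the E15.0 plate that stood apart. Egfl6 lies on the X chromosome, and the share of cells with Xist differed between plates. In cells with Xist under 1 TPM alone its slope was 0.55 (adjusted p = 0.037). Fewer cells of a type within the epithelial class and less RNA per cell cannot be told apart in these means.

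**Figure D3:**
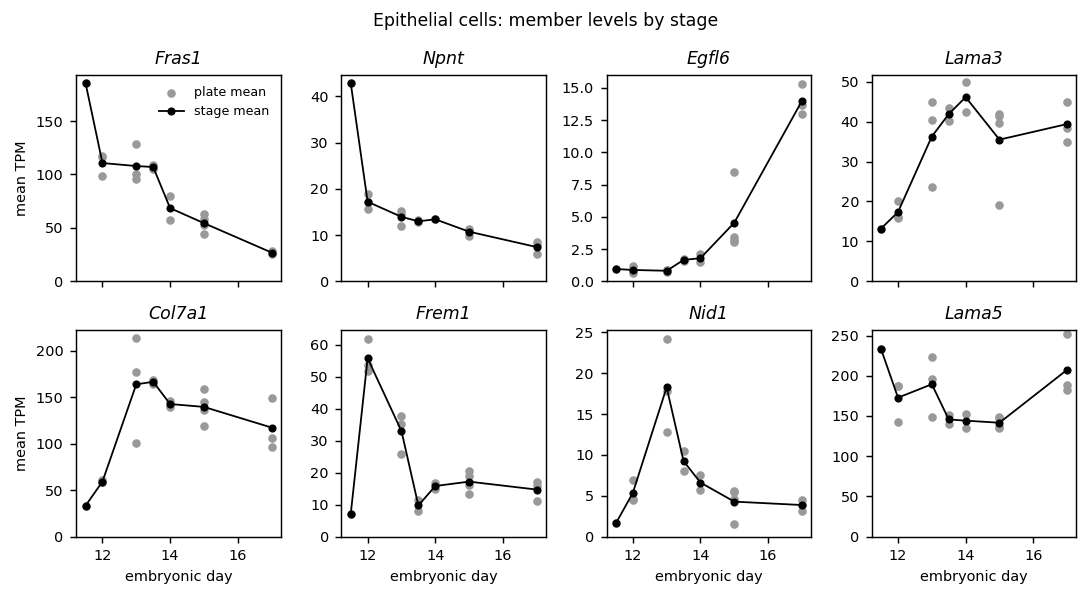
Mean TPM of 8 members in epithelial cells against embryonic day, with the stage mean in black and plate means in grey. Fras1 and Npnt go from 186 and 42.9 TPM to 26.9 and 7.404 TPM, Egfl6 goes from 0.95 to 13.99 TPM, Frem1 is highest at E12.0, and Nid1 at E13.0.

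Epithelial and fibroblast-like cells were compared over the 5 stages with at least 10 cells of each, with the stage as a block, which asks which side of the sheet makes which part. Both classes of a stage were sorted onto the same plates. Of 24166 genes tested, 8.0% were higher in epithelial cells and 13.3% in fibroblast-like cells. Of the 28 members tested, 13 were higher in epithelial and 6 in fibroblast-like cells. The median log2 difference of the 28 was 0.77 against -0.10 over all genes. The 3 members that did not reach 1 TPM on average were Col4a3, Col4a4 and Frem3.

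Higher on the epithelial side were Lama5 (log2 difference 6.22 ± 0.14 SE, adjusted p = 8.53e-06), Col17a1 (5.61 ± 0.19, adjusted p = 3.75e-05) and Frem2 (5.14 ± 0.20, adjusted p = 5.33e-05), with all 5 stages in that direction. These are an integrin-binding laminin chain, a hemidesmosome collagen and a Fraser protein. Lama3 (3.80), Col18a1 (3.22), Npnt (2.55), Fras1 (2.22), Col4a6 (2.04), Col4a5 (2.02), Tinagl1 (1.80), Agrn (1.39), Col7a1 (1.19) and Lamb3 (0.88) were also called, again in all 5 stages. For Lama3 the stage differences were 3.80, 4.96, 5.52 and 4.17 up to E15.0 and 0.54 at E17.0, the stage with the 19 fibroblast-like cells described above. For Npnt they went from 4.03 at E11.5 to 1.16 at E17.0. Fras1 differed by 3.38 and 3.52 at E11.5 and E13.0 and by 1.07 and 0.95 at E15.0 and E17.0.

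Higher on the fibroblast side were Lama2 (-5.03 ± 0.41, adjusted p = 0.000791), Lama4 (-4.31 ± 0.44, adjusted p = 0.00176), Lamc3 (-4.15 ± 0.59, adjusted p = 0.00554), Nid1 (-3.65 ± 0.31, adjusted p = 0.000922), Nid2 (-3.04 ± 0.15, adjusted p = 0.000114) and Frem1 (-2.38 ± 0.42, adjusted p = 0.0117). Thus 3 laminin chains and both nidogens were on that side, in all 5 stages. Frem1 differed by only -0.43 at E13.0 and by -2.19 to -3.44 at the other stages. The 9 members without a call were Col4a1, Col4a2, Lama1, Lamb1, Lamb2, Lamc1, Hspg2, Dst and Egfl6. Egfl6 differed by -4.68 at E13.0 but by -0.34 and -0.11 at E11.5 and E17.0 (fitted -1.94, adjusted p = 0.0831). Lamb2 was called as higher in fibroblast-like cells in 3 alternatives, which were cells with Xist under 1 TPM (-0.86, adjusted p = 0.0148), at least 20 cells a stage (-0.85, adjusted p = 0.0495) and no E11.5 (-0.76, adjusted p = 0.021).

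**Figure D4:**
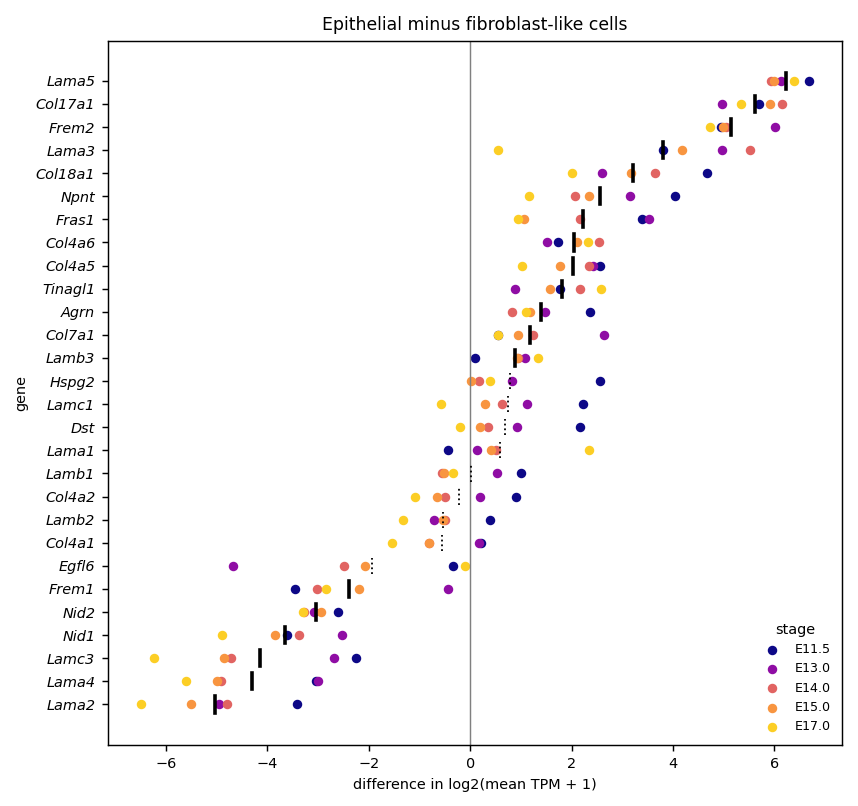
Difference in log2(mean TPM + 1), epithelial minus fibroblast-like, for the 28 tested members (rows), with a point per stage and a bar at the fitted value (solid where the adjusted p was under 0.05, dotted otherwise). Lama5, Col17a1 and Frem2 lie near 5 to 6 at all 5 stages, the yellow E17.0 point of Lama3 lies at 0.54, and Lama2, Lama4 and Lamc3 lie furthest to the left at E17.0.

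The weaker class calls depended on the stages and settings used. Of 30 alternatives Col7a1 lost its call in 10, Lamb3 in 7, Fras1 in 4, Lama3 in 2 and Frem1 in 1, with the direction kept in each, and the other 14 called members kept theirs in every alternative in which they were tested. Without the E15.0 plate that stood apart the counts were again 13 and 6. Lamb3 was 12.5 to 22.9 TPM in fibroblast-like cells, 13.95 TPM in endothelial and 12.6 TPM in neural crest derived cells. Its span overlaps those of Hsd11b1 and G0s2 without shared exon bases, and these stood at or under 3.52 TPM in all classes. The order of Lamb3 levels between the non-epithelial classes was not tested.

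Of the 14 receptor and anchoring partners 8 were higher in epithelial cells, 0 were higher in fibroblast-like cells and 6 did not pass, against 8.0% and 13.3% of all genes called in those directions. The largest differences were those of Fermt1, an integrin activator (5.63, adjusted p = 4.91e-05), Itga3, a laminin receptor subunit (5.36, adjusted p = 0.00014), and Bcam, a receptor for Lama5 (4.93, adjusted p = 6.85e-06). Itga6 was among the 8, and both classes had been sorted on its protein. Assembly and other matrix genes had 2 of 24 higher in epithelial and 8 in fibroblast-like cells. The largest of these were Ntn1, a laminin-like guidance protein (-2.84, adjusted p = 0.0271), Fbln2 (-2.67, adjusted p = 0.00116), Loxl2, an enzyme that crosslinks collagen (-2.67, adjusted p = 0.00109), and Ntn4 (2.19, adjusted p = 0.0352), of which Ntn1 was opposite in 1 of 5 stages.

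The 46 endothelial cells and 56 neural crest derived cells, pooled over stages, give the levels of the neighbouring types, with no test. The endothelial cells were sorted although cells with CD31, the product of Pecam1, were to be excluded. Endothelial cells had 1400 TPM of Col4a1, 343 TPM of Col4a2, 308 TPM of Hspg2 and 232 TPM of Lama4, and 16.2 TPM of Lama5. Tinagl1, low in the other classes, was 59.03 TPM in endothelial cells. Neural crest derived cells had 214 TPM of Dst, 211 TPM of Agrn, 133 TPM of Nid1 and 129 TPM of Lama4, and 29.8 TPM of Frem2. Col4a1, Col4a2 and Lama4 were thus at their highest levels outside both main classes.

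Within the epithelium, Shh marks the placode centre and later the hair matrix, Sox9 the placode edge and stem cell lineage, and Krt10 suprabasal cells. Cells with at least 10 TPM of each gene were compared with cells under 1 TPM in each stage that held at least 10 of both. For Shh this gave 5 stages, with 64, 12, 11, 15 and 32 positive cells from E12.0 to E17.0 (E13.5 held too few). Of 23833 genes 0.189% were called, 0.101% as higher and 0.0881% as lower in positive cells, and of the 24 members tested 0 were called by limma, with 11 at an unadjusted p under 0.05, a level that 3755 genes (15.8%) reached. The differences were negative for 20 of the 24 (83.3%, against 52.8% of all genes), with a median of -0.83 against -0.02. Median genes per cell were 20187, 17939.5, 17307, 16592 and 16043 in Shh positive and 19097, 16945, 17462, 17380.5 and 16636 in negative cells from E12.0 to E17.0. Positive cells thus had more genes at E12.0 and E13.0 and fewer at the 3 later stages, and the part of this in the differences was not tested.

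The values by stage set E12.0 apart from later stages. Dst was 23.3, 36.3, 21.6, 12.1 and 35.3 TPM in Shh positive cells and 45.7, 73.9, 74.2, 85.2 and 153 TPM in negative cells from E12.0 to E17.0 (fitted log2 difference -1.70 ± 0.27, adjusted p = 0.0689). It was lower in positive cells at all 5 stages. Col7a1 was 73.7 TPM in positive and 51.7 TPM in negative cells at E12.0, but 62.5, 52.1, 13.7 and 12.5 TPM in positive and 192, 152, 151 and 144 TPM in negative cells at the 4 later stages. Nid1 was 13.4 TPM in positive and 2.27 TPM in negative cells at E12.0, and below the negative cells at the other 4 stages. Fras1 went the other way from most members, at 159, 139, 110, 89.6 and 63.3 TPM in positive and 92.02, 101, 65.8, 51.5 and 17.8 TPM in negative cells (0.91 ± 0.19, adjusted p = 0.11). It was higher in positive cells at all 5 stages. Egfl6 was 0.64 TPM in positive and 17.01 TPM in negative cells at E17.0.

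Without E12.0, 1286 of 22986 genes (5.59%) were called, and 6 members were lower in Shh positive cells, where 3.99% of genes were lower and 1.61% higher. These were Col7a1 (-2.48, adjusted p = 0.0291), Col17a1 (-2.22, adjusted p = 0.0217), Col4a6 (-2.01, adjusted p = 0.0164), Dst (-1.89, adjusted p = 0.0243), Nid1 (-1.68, adjusted p = 0.0223) and Col4a5 (-1.57, adjusted p = 0.02). The 3 anchoring genes and the epithelial type IV collagen pair were among them, and 0 members were higher. This fit was singled out among the alternatives, so its p-values do not replace the main fit, which called 0 members. Each stage was left out in turn, and leaving out E13.0, E14.0, E15.0 or E17.0 instead gave 18, 5, 4 and 5 genes called. Among the stages left out in turn, only E12.0, the stage whose values stood apart, thus gave a large number of calls. With E12.0 kept, 364 genes were called with at least 5 cells a stage, which adds E13.5. Of the members, Dst, Col4a6, Col4a5 and Col17a1 were then called as lower. Means of log2 values gave 290 genes, with 2 members lower and 1 higher. A difference between E12.0 and the later stages was not tested.

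**Figure D5:**
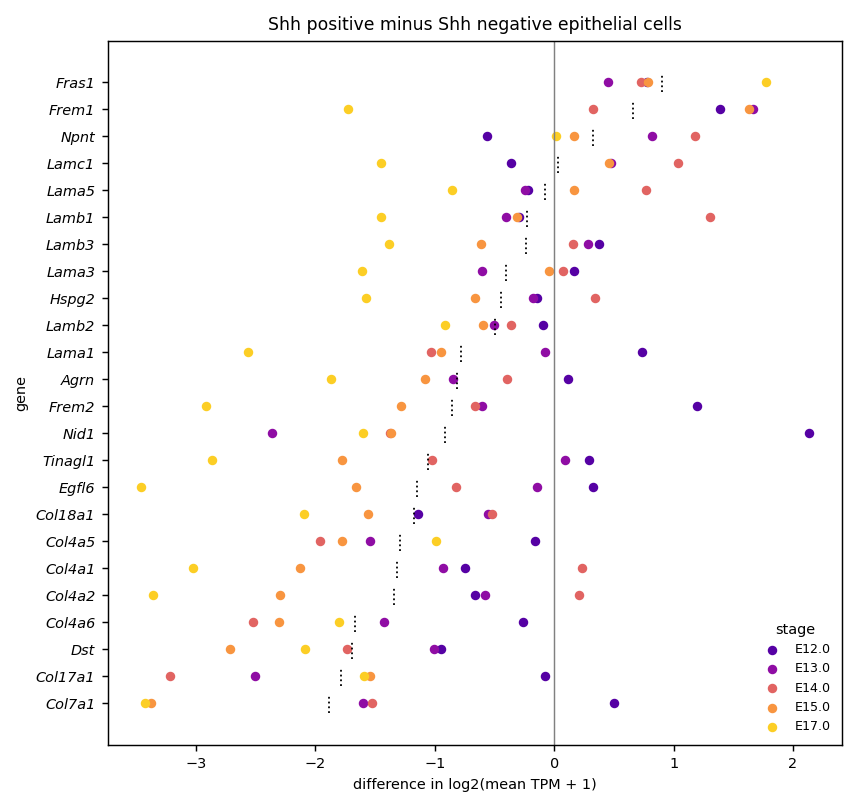
Difference in log2(mean TPM + 1), Shh positive minus Shh negative epithelial cells, for the 24 tested members (rows), with a point per stage and a dotted bar at the fitted value, none of which passed the test. Fras1 is above 0 at all 5 stages, Dst and Col18a1 are below 0 at all 5, and Nid1, Frem2 and Col7a1 are above 0 at E12.0 and below 0 later.

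The comparison by Sox9 held 4 stages, all but E11.5, E13.0 and E13.5, and its negative cells numbered 46, 14, 19 and 41. It shares many cells with the comparison by Shh, so the 2 are not independent. Limma called 0 genes of 23644 and 0 of the 24 members, with 4496 genes and 10 members at an unadjusted p under 0.05. The differences were positive for 21 of the 24 members, against 62.4% of all genes, with a median of 0.43 against 0.09 over all genes. Fras1 was 84.8, 53.9, 52.9 and 17.9 TPM in Sox9 positive and 124, 121, 97.8 and 56.8 TPM in negative cells, lower in positive cells at all 4 stages. Dst was 29.2, 75.7, 82.9 and 153 TPM in Sox9 positive and 44.9, 34.2, 28.4 and 50.8 TPM in negative cells, lower at E12.0 and higher later. Median genes per cell moved the same way, at 19351, 17528, 17400 and 16689 in Sox9 positive and 19687.5, 17127.5, 16592 and 15947 in negative cells, and their part was not tested. Without E12.0, 1203 genes (5.33%) were called, 3.77% of those tested as higher and 1.56% as lower in Sox9 positive cells. The members then called were Dst (1.40, adjusted p = 0.0208), Col4a6 (1.32, adjusted p = 0.0261), Nid1 (1.10, adjusted p = 0.0412) and Col4a5 (0.99, adjusted p = 0.0359) as higher and Fras1 (-1.21, adjusted p = 0.0367) as lower. Leaving out E14.0, E15.0 or E17.0 instead gave 0 genes called each time. The fit without E12.0 was singled out here too, so its p-values do not replace those of the main fit.

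The comparison by Krt10 held 6 stages, all but E11.5, with 10 to 74 cells of each kind. Positive cells at E12.0 did not exceed 27.5 TPM of Krt10 and were 6.37% of the epithelial cells. Among fibroblast-like cells 6.19% at E13.0 (highest 26.4 TPM) and 7.14% at E15.0 also reached 10 TPM. At E11.5, E13.5, E14.0 and E17.0 that share was 0%. At this cut a positive cell therefore need not be suprabasal. Limma called 0 genes of 23707 and 0 of 24 members, with 2600 genes and 10 members at an unadjusted p under 0.05. The differences were negative for 21 of the 24 (87.5%, against 63.5% of all genes), with a median of -0.42 against -0.07. Agrn, Dst, Lama3 and Col4a5 were lower in Krt10 positive cells at all 6 stages, by small amounts (Dst: -0.42 ± 0.16, adjusted p = 0.41). Krt10 positive cells had fewer genes per cell by median at 5 of the 6 stages, with 15593 against 18087.5 at E13.0, and 16706.5 against 16583 at E17.0, and the part of this was not tested. The called share was 0% both for genes higher and for genes lower in the comparisons by Sox9 and by Krt10, and a call missed at 4 or 6 stages does not show that levels were alike.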

How the data were processed

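Single whisker follicle cells of 7 stages were profiled by RamDA-seq. The authors deposited 1 table of TPM, which corrects for gene length and library size, summed over genes that share a symbol; columns total 991213 to 999516, so read depth is unknown and genes detected per cell are given instead. The tools were HISAT2 2.0.4, bcl2fastq 1.0 and Subread 1.5.0 (featureCounts), and the build mm10, per the submitters' processing notes. Whether strand was used and the annotation release are not given in the sources used here. The labels name 1666 cells, of which 52 of low quality lack a column; all 1614 columns were used. No doublet caller was run on these cells sorted to single wells.

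TPM was averaged over the cells of a plate, then over plates with equal weight, for stages with at least 10 cells of a class. limma 3.58.1 (R 4.3.3; lmFit, eBayes with trend) was fitted on log2(mean TPM + 1) for all genes whose profiles average 1 TPM or more, with day as covariate or the stage as a block, and Benjamini-Hochberg adjustment over all genes tested. Fold changes on that scale understate those of low genes. The fits were tested on simulated data. With no embryo named, p-values measure only the spread between stages. Other scaling (rescaling without 363 ribosomal, mitochondrial and small RNA symbols, or median-of-ratios factors) moved the median of all genes by up to 0.11 log2.

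All members may be named, and of the 2 further lists at most 4 called genes with the largest change in a comparison. The members, lists and class rules were chosen with earlier results of these data known. Positions come from GENCODE M21 and RefSeq on GRCm38.p6. Other steps ran in Python 3.11.15 (scipy 1.17.1, numpy 2.4.6, matplotlib 3.10.9, pandas 2.3.3). Alternatives were a stricter filter (10 TPM) or none, other pseudocounts (0.1 or 5 TPM), scaling, means of log2 values, pooled cells, stricter classes, cells with low Xist, other cell minimums, no stage block, and leaving out each stage and plate.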

Additional observations from a re-analysis of the deposited data

How the results depend on the processing

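No value of a called member changed direction under any alternative that was run, and the calls that were lost are named with the results. For the trend, 443 genes were called, against 30 with no filter, 691 with means of log2 values, 1412 with the rank of the stage, and 39 to 517 when a stage or plate was left out. The member that rose was not called (0) with a filter at 10 TPM, which removes Egfl6, or with no filter, and 0 to 1 were with a stage or plate left out. Members that fell numbered 0 with no filter, 2 with means of log2 values and with the rank of the stage, and 0 to 1 with a stage or plate left out. Between the classes, 5152 genes were called, against 2793 with a filter at 10 TPM and 2267 to 7087 with a stage or plate left out. Median-of-ratios scaling turned the split of 1933 higher and 3219 lower in epithelial cells into 2543 and 2396, with 13 and 6 members as before. For Shh, 45 genes were called, against 27 with a pseudocount of 0.1 TPM, 77 with a filter at 10 TPM, 1 with no filter, 290 with means of log2 values, 28 with stricter classes, 0 in cells with low Xist (3 stages), 364 with at least 5 cells, 27 with positive cells at 30 TPM, and 4 to 1286 with a stage or plate left out. Members lower in Shh positive cells numbered 1 with a filter at 10 TPM (Dst), 2 with means of log2 values, 4 with at least 5 cells, and 0 to 6 with a stage or plate left out, and 1 was higher with means of log2 values. For Sox9, 1 gene was called with a filter at 10 TPM, means of log2 values, at least 5 cells, no stage block or positive cells at 30 TPM, and 0 to 1203 with a stage or plate left out, with 0 to 4 members higher and 0 to 1 lower. For Krt10, 1 gene was called with means of log2 values, 3 in cells with low Xist, and 0 to 13 with a stage or plate left out. The alternative of at least 20 cells left too few stages for the comparisons by Shh, Sox9 and Krt10 and gave no value there. No paired analysis was possible for the trend with day, because each stage enters that fit as 1 profile. The 4 plate identifiers found at 2 stages tie only E13.0 with E15.0 and E15.0 with E17.0. In the main fits of the classes and of Shh, Sox9 and Krt10, each stage enters as 2 profiles, which the stage block pairs. TPM keeps no read depth, so low levels carry no counting interval.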
